A study of Mus musculus with 6 samples.

Results

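The 42 genes described here are named for the testis: 17 testis-expressed genes whose symbol is Tex followed by a number, 18 spermatogenesis-associated genes whose symbol is Spata followed by a number, and 7 germ cell genes chosen by name (Tnp1, Tnp2, Prm1, Prm2, Ddx4, Sycp1 and Sycp3). They were picked by gene name alone from the 28032 genes of a whole mouse genome array, where 66 of 41174 non-control probes measure them. The names do not make all of them germ cell genes, so they were sorted by known role into 9 genes of meiosis and germ granules, 4 of sperm chromatin packaging, 12 that are known in many tissues, and 17 other genes named for the testis. In the files Tex13 stands for the gene now called Tex13b, and Spata2l is spelled Spata2L.

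The samples are thymic epithelial cells (TEC), the stroma on which developing T cells are selected, sorted as EpCAM+ CD45- cells from C57BL/6 mice aged 4 weeks. All mice carried the same bacterial artificial chromosome transgene, Tg(Meis1-EGFP)FO156Gsat/Mmcd, in which EGFP is driven by sequence of the homeobox gene Meis1. The 3 gates were Meis1-high (small cells, bright EGFP), Meis1-low (large cells, intermediate EGFP) and Meis1-negative (small cells, no EGFP), each with 2 arrays from pools of 6 mice. Cell size and reporter level both differ between Meis1-low and each of the other gates, while Meis1-high and Meis1-negative are both small cells. A reporter shows activity of the transgene rather than of the endogenous gene. No untreated or non-transgenic group was analysed here.

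A level is the log2 of a probe's signal with the 75th percentile of its array subtracted, so 0 is that percentile and a difference of 1 is a 2-fold difference. A probe was called well above background by the mark of the scanner software, and a gene was tested if a probe had that mark on both arrays of at least 1 gate. Meis1 itself had levels of 0.30 and 0.17 on Meis1-high, -2.27 and -1.54 on Meis1-low, and -3.17 and -0.93 on Meis1-negative, and both Meis1-high arrays lay above the other 4. All 9 markers of thymic epithelium were well above background on all 6 arrays. Of 17 thymocyte and T cell markers, 15 were tested, and their summed signal, in multiples of the 75th percentile, came to 12.5 and 11.9 on Meis1-high, 23.3 and 13.6 on Meis1-low, 1252 on Meis1-negative replicate 1 and 33.7 on Meis1-negative replicate 2. The markers of thymic epithelium summed to 56.6 on Meis1-negative replicate 1 and to between 199 and 515 on the other 5 arrays. Meis1-negative replicate 1 therefore stood apart before any germ cell gene was considered, and results that involve that gate are given for each array.

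Spermatogenesis takes a diploid germ cell through meiosis and then through a reshaping of the haploid spermatid into a sperm. In meiosis, homologous chromosomes are paired by the synaptonemal complex, while granules of RNA and protein around the nucleus carry small RNAs that keep transposons silent. In spermatids, histones are replaced first by transition proteins and then by protamines. Many of these genes are expressed after tolerance to self is set up, and medullary TEC transcribe them, under the control of Aire and other factors, so that T cells reactive to germ cell proteins can be removed or diverted. Such genes are called tissue-restricted antigens. In cells outside the germ line many meiotic genes are kept silent through methylation of CpG dinucleotides at their start sites or through repressor complexes that hold the factor E2F6.

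**Figure D1:**
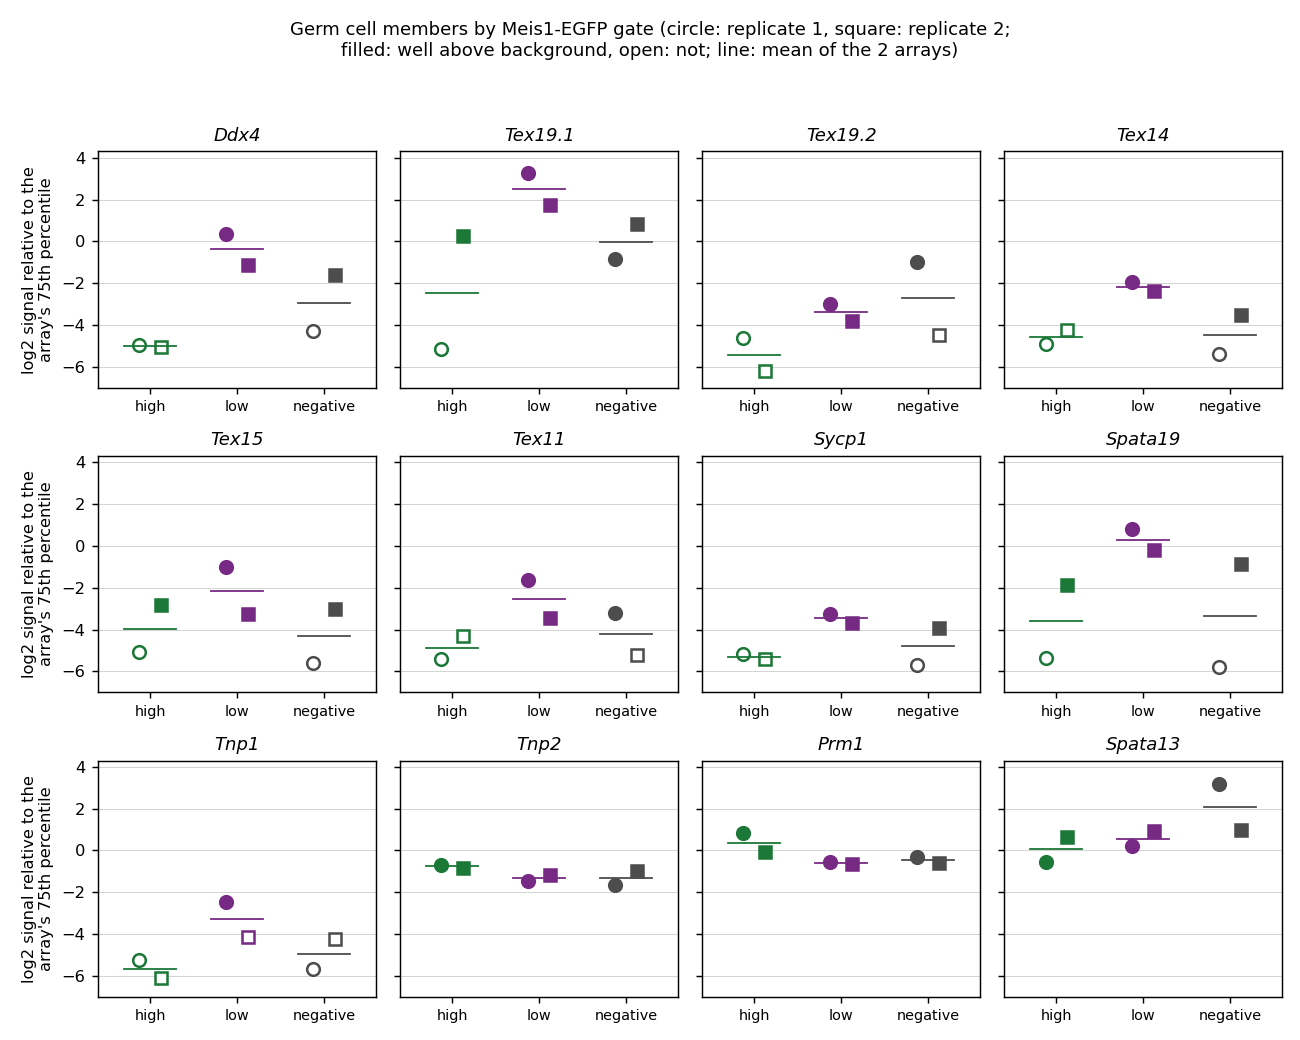
Levels of 12 of the genes on the 6 arrays (log2 signal relative to the array's 75th percentile, vertical axis) by Meis1-EGFP gate, with circles for replicate 1, squares for replicate 2, filled symbols for probes well above background, open symbols for those that were not, and a line for the mean of both arrays. For Ddx4 the Meis1-low arrays lay at 0.34 and -1.12 and the Meis1-high arrays at -4.95 and -5.03, while for Tnp2 all 6 arrays lay between -1.66 and -0.67.

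The sequences just upstream of the start sites are shown for 5 genes on which the comparisons turn, the 4 with the most negative differences between Meis1-high and Meis1-low and Sycp1, because they differ widely in CpG content. They are the 250 bases before the RefSeq start on build GRCm38.p6, written 5′ to 3′ on the strand of the gene, with each CpG in capitals. Ddx4 lies at chr13:112652311-112652560 on the minus strand, Sycp1 at chr3:102936101-102936350 on the minus strand, Tex14 at chr11:87404815-87405064 on the plus strand, Tex19.1 at chr11:121145893-121146142 on the plus strand, and the first of 2 Spata19 starts at chr9:27396557-27396806 on the plus strand.
Ddx4: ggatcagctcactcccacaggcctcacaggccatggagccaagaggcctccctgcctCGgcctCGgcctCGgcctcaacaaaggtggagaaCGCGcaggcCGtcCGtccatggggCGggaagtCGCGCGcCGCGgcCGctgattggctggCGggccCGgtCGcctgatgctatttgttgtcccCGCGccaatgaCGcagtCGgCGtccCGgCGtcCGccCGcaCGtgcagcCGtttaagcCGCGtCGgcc
Sycp1: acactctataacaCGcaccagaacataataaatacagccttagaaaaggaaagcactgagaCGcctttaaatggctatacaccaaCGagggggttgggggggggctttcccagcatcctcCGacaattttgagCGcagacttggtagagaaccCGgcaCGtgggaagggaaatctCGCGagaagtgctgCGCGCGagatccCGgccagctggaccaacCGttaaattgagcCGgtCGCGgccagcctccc
Tex14: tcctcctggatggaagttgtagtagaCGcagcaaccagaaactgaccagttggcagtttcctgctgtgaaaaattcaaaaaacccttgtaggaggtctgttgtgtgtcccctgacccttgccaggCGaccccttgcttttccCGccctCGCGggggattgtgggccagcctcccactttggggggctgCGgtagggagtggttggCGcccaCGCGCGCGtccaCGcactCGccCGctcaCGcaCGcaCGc
Tex19.1: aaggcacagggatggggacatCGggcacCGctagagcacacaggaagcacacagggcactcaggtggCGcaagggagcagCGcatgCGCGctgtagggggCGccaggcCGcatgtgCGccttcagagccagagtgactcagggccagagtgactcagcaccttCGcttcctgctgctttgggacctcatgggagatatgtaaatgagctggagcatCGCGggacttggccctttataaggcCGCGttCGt
Spata19: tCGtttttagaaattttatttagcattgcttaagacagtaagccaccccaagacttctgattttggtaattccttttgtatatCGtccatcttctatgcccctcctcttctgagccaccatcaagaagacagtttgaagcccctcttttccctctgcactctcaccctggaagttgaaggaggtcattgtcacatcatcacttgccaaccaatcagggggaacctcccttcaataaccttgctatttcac

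In windows of 300 bases (250 before to 50 after the start), Ddx4 had 38 CpG, Sycp1 21, Tex14 20 and Tex19.1 16, against a median of 7 over all 32851 RefSeq windows. The Spata19 windows had 2 and 4. The table held 41 windows for 36 of the 42 genes, with a median of 16 CpG. By role the medians were 20 for meiosis and germ granules, 22 for the widely expressed genes, 8.5 for the other testis-named genes and 3.5 for sperm chromatin packaging, where Prm1 had 1. Tex11, Tex13a, Tex15, Tex22, Spata2l and Spata24 were not matched.

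The letters GCGGGAA, an element bound by E2F6, stood on either strand in 6 of the 41 windows (Ddx4, Spata5, Sycp3, Tex12, Tex14 and Tex9), against 4.6% of all windows. The E-box CACGTG stood in 6 windows (Ddx4, Spata16, Sycp1, Sycp3, Tex10 and Tex12), against 7.15% of all. The cAMP response element TGACGTCA, known from promoters of spermatid genes, stood in 1 window (Spata7), against 1.79%, and its first 5 letters TGACG, which also lie inside the full element, stood in 10 windows, against 20.81%. These matches describe letters and not bound sites.

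Detection differed between the gates. Of the 42 genes, 32 were well above background on both Meis1-low arrays (76.2%, against 59.7% of all 28032 genes). On both Meis1-high arrays 21 were (50%, against 52.3% of all genes), and on both Meis1-negative arrays 17 were (40.5%, against 52.2%). By array the counts were 21 and 28 on Meis1-high, 34 and 32 on Meis1-low, and 19 and 31 on Meis1-negative. Replicate 1 of Meis1-high and of Meis1-negative were also the arrays with the fewest genes detected in all, at 54.18% and 54.04%, against 63.16% to 69.18% on the other 4. The lowest level marked well above background was -3.14 and -3.98 on Meis1-high, -4.23 and -4.10 on Meis1-low, and -3.66 and -4.25 on Meis1-negative. A gene at the same level could thus be marked on 1 array and missed on another, and the part of this in the counts was not tested. On these bulk samples, fewer cells that express a gene and less RNA per cell cannot be told apart.

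Ddx4, Sycp1, Tex11 and Tex19.2 were well above background on both Meis1-low arrays and on no Meis1-high array, which is 9.52% of the 42 genes against 3.14% of all genes. The reverse held for none of the 42, against 0.631% of all genes. No probe for 8 genes was well above background on any array: Sycp3 and Tex12, both structural parts of the synaptonemal complex, and Spata3, Spata4, Tex13, Tex13a, Tex16 and Tex22. Spata16, a Golgi protein needed for the acrosome, was marked on Meis1-negative replicate 2 by its brightest probe and on Meis1-low replicate 1 by another probe. Tnp1 was marked only on Meis1-low replicate 1. These 10 genes were not tested, and the 32 tested genes are exactly those marked on both Meis1-low arrays.

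**Figure D2:**
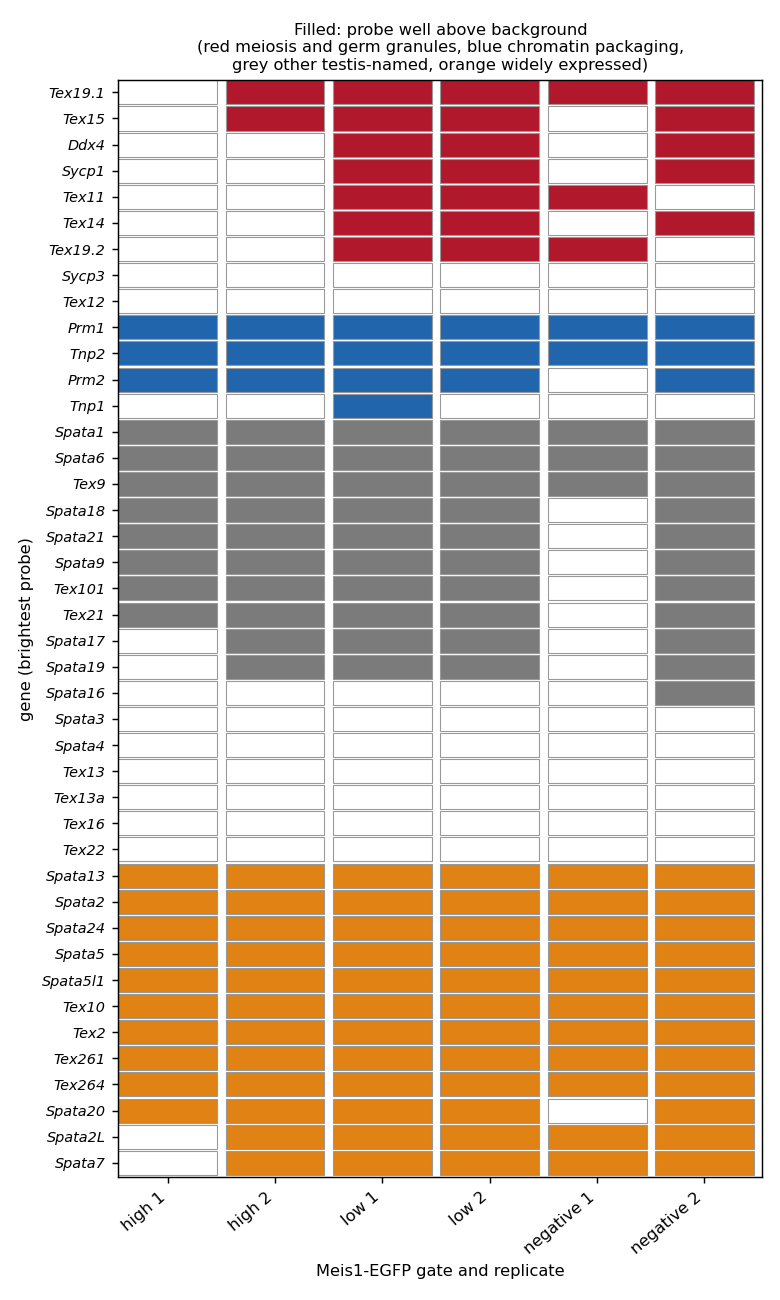
Detection of the 42 genes (rows, by the gene's brightest probe) on the 6 arrays (columns), filled where the scanner software marked the probe well above background and coloured by role. The 7 detected genes of meiosis and germ granules, in red, are filled on both Meis1-low arrays and on no or 1 array of Meis1-high, while 9 of the 12 widely expressed genes, in orange, are filled on all 6 arrays.

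Meis1-high was compared with Meis1-low with limma over all 18214 tested genes. At an adjusted p under 0.05, 0 of the 32 tested genes differed, as did 0 of all genes (0%). At an unadjusted p under 0.05, 6 of the 32 did (Ddx4, Spata2, Sycp1, Tex11, Tex14 and Tex19.1, each with the lower level in Meis1-high), against 12.9% of all genes. Both Meis1-low arrays lay above both Meis1-high arrays for 12 of the 32, against 31.5% of all genes, and the opposite held for 6, against 22.2%. The only gate that let 8 of the 32 pass the filter was Meis1-low (Ddx4, Spata17, Spata19, Sycp1, Tex11, Tex14, Tex15 and Tex19.2), and all of these but Tex15 are among the 12, so the filter in part set that count. The median log2 difference, Meis1-high minus Meis1-low, was -0.05 for the 32 genes and -0.16 for all genes tested, and the estimate was below 0 for 18 of the 32, against 55.8% of all genes. By slide the median was -0.11 and -0.28 for the 32 genes, against -0.22 and -0.08 for all genes. A median over the 32 joins roles whose own medians lay on both sides of 0, so it does not show that single differences were small. The estimates are given by role.

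Genes of meiosis and germ granules had the most negative estimates. The 7 tested of 9 had a median of -2.34, and all 7 estimates were below 0. For 6 of the 7 the only gate that let them pass the filter was Meis1-low, so this direction was in part set by the filter and is no support for a difference. No value of the 7 passed the adjusted test as run, and Tex19.1 passed with another background correction. A probe that was dim on both arrays of a gate has only an upper limit there, and for these the fold is given as a lower bound against the dimmest signal that the scanner called well above background. Within a slide, a log2 difference from such a probe is likewise given as "at least". The fitted estimates use the scanner's surrogate value for it and are no bounds.

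Ddx4, the germ line RNA helicase also known as Vasa, had levels of -4.95 and -5.03 on Meis1-high, 0.34 and -1.12 on Meis1-low, and -4.27 and -1.59 on Meis1-negative. Both Meis1-low arrays lay above the other 4, and neither Meis1-high array gave a signal well above background. Meis1-low was at least 9.02-fold higher than Meis1-high. The fitted difference, Meis1-high minus Meis1-low, was -4.60 ± 0.98 (SE), with an adjusted p of 0.254 (limma), and within the slides Meis1-low was higher by at least 3.49 and 2.86 on the log2 scale. The Meis1-negative gate was uneven, with Ddx4 detected only on replicate 2.

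Tex19.1, which restrains retrotransposons in germ cells and is also known in embryonic stem cells and placenta, had levels of -5.17 and 0.25 on Meis1-high, 3.26 and 1.76 on Meis1-low, and -0.86 and 0.83 on Meis1-negative. The order of the gates was the same on both slides, but Meis1-high replicate 1 was not well above background: Meis1-low was higher by at least 6.40 on slide 1, and Meis1-high minus Meis1-low was -1.51 on slide 2. The estimate was -4.97 ± 1.64 (SE; adjusted p 0.297, limma). With normexp background correction it was -2.39 and passed (adjusted p 0.00479), while under 12 other settings the adjusted p ran from 0.11 to 0.403 and with 1 array left out from 0.183 to 0.9998 (limma). Its neighbour on chromosome 11 and close relative Tex19.2 had levels of -4.64 and -6.19, -2.99 and -3.79, and -1.0 and -4.46, with the highest of the 6 on Meis1-negative replicate 1. For Tex19.2 Meis1-low was at least 1.13-fold higher than Meis1-high (adjusted p 0.518, limma). Because the 2 genes are alike in sequence, RNA of one may bind the probe of the other, and their values are uncertain to that degree.

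Tex14, a protein of the bridges that join dividing germ cells, had levels of -4.90 and -4.22 on Meis1-high, -1.96 and -2.40 on Meis1-low, and -5.4 and -3.53 on Meis1-negative. Both Meis1-low arrays were above the other 4, and the estimate was -2.38 ± 0.78 (SE; adjusted p 0.297, limma). A second Tex14 probe was well above background on replicate 2 of each gate and not on replicate 1, with -4.72 and -3.29 on Meis1-high, -6.22 and -2.75 on Meis1-low, and -5.61 and -3.09 on Meis1-negative. It did not pass the filter, and its difference was 0.48, so the 2 probes do not give the same direction. Tex11, an X-linked protein of meiotic recombination, had levels of -5.4 and -4.33, -1.63 and -3.43, and -3.20 and -5.23. Meis1-low was at least 2.04-fold higher than Meis1-high (adjusted p 0.371, limma), and it overlapped with Meis1-negative. Tex15, needed for recombination and for transposon silencing, had -5.08 and -2.85, -1.02 and -3.27, and -5.59 and -3.04, so the gates overlapped: Meis1-low was higher by at least 2.12 on slide 1, and Meis1-high by 0.42 on slide 2.

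Sycp1, the transverse filament of the synaptonemal complex, had levels of -5.19 and -5.43 on Meis1-high, -3.27 and -3.67 on Meis1-low, and -5.68 and -3.94 on Meis1-negative. Meis1-low was at least 1.06-fold higher than Meis1-high, a bound close to no difference, because the Meis1-low signal itself was only just above background. The estimate was -1.84 ± 0.74 (SE; adjusted p 0.368, limma). Its partner Sycp3, of the lateral element, was not well above background anywhere, with levels of -5.14 and -5.99, -6.08 and -6.10, and -4.81 and -6.25. Tex12, of the central element, was likewise between -6.26 and -4.84. The lowest signal that counted as well above background lay between -4.25 and -3.14, depending on the array, so the order among such values carries no information.

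The genes of sperm chromatin packaging were detected more evenly. Tnp2, a transition protein, had levels of -0.67 and -0.85 on Meis1-high, -1.45 and -1.17 on Meis1-low, and -1.66 and -0.98 on Meis1-negative. Both Meis1-high arrays were above the other 4, with a difference from Meis1-low of 0.55 ± 0.61 (SE; adjusted p 0.743, limma), which is smaller than its error. Prm1, a protamine, had 0.83 and -0.09, -0.56 and -0.67, and -0.34 and -0.59. Its 3 probes did not give the same direction, with differences between Meis1-high and Meis1-low from -1.15 to 0.98, so no direction is given for the gene.

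Prm2, the second protamine, had levels of -2.79 and -2.42 on Meis1-high, -2.72 and -2.95 on Meis1-low, and -4.50 and -2.26 on Meis1-negative. The gates overlapped, with an estimate of 0.23 ± 0.83 (SE; adjusted p 0.932, limma). Tnp1, the other transition protein, was marked on 1 of the 6 arrays, Meis1-low replicate 1 (-2.44). It had -4.12 on Meis1-low replicate 2, -5.23 and -6.09 in Meis1-high and -5.68 and -4.25 in Meis1-negative. The probes of Prm1, Prm2 and Tnp2 lie on chromosome 16 between positions 10788572 and 10796748 (mm9), next to each other, while Tnp1 lies on chromosome 1. The 3 tested genes of this role had a median difference of 0.55. Prm1 enters this median with its brightest probe (0.98), whose direction the other Prm1 probes did not share, and Tnp1 has no part in it.

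**Figure D3:**
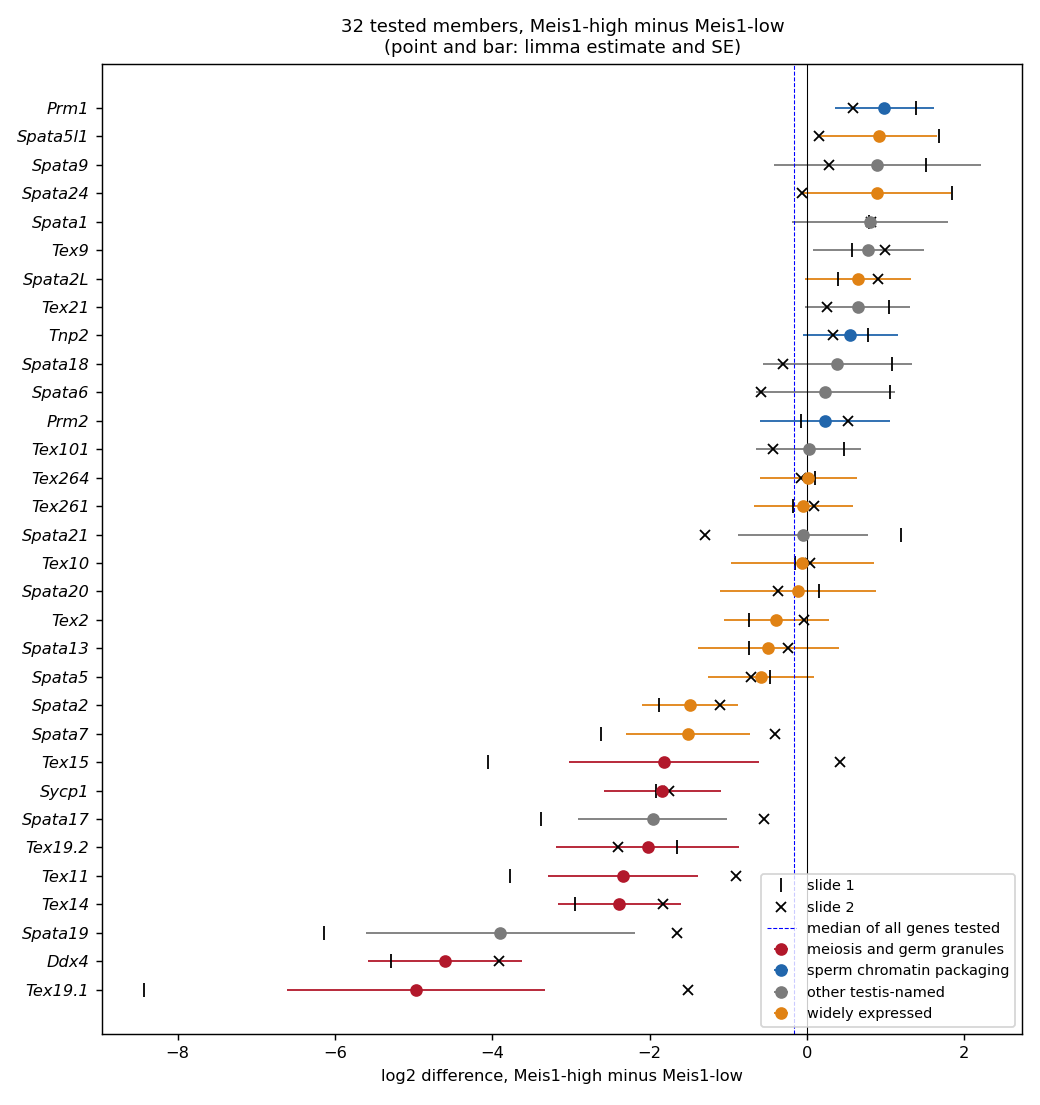
Log2 difference, Meis1-high minus Meis1-low (horizontal axis), for the 32 tested genes, with the limma estimate and its SE coloured by role, the difference within each slide as a tick (slide 1) or a cross (slide 2), and a dashed line at the median of all genes tested (-0.16). The 9 lowest estimates, from Tex19.1 at -4.97 up to Tex15 at -1.82, hold all 7 tested genes of meiosis and germ granules, and for Tex15 the slides lie on opposite sides of 0. All of these 9 genes but Tex19.1 passed the filter through Meis1-low alone, so the filter in part set their place. Slide marks include the surrogate signals of undetected probes.

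Among the other testis-named genes, 10 of 17 were tested, with a median of 0.31. Spata19, a mitochondrial protein of the sperm midpiece, had levels of -5.34 and -1.85 on Meis1-high, 0.81 and -0.19 on Meis1-low, and -5.81 and -0.85 on Meis1-negative. Both Meis1-low arrays were above the other 4, by at least 3.95 over Meis1-high on slide 1, and Meis1-high minus Meis1-low was -1.65 on slide 2 (-3.90 ± 1.71, SE; adjusted p 0.4, limma). Spata17, a calmodulin-binding protein of the testis, had -5.38 and -3.01, -2.00 and -2.46, and -4.56 and -2.98, with an estimate of -1.96 ± 0.95 (SE; adjusted p 0.443, limma). Another Spata17 probe was marked on replicate 2 of Meis1-high (-3.41) and of Meis1-low (-3.78), with a difference of 0.72. The remaining Spata17 probe had a difference of -0.18. Neither passed the filter, and the probes do not give the same direction. For the tested probes of Spata19 and Spata17 the replicate 1 arrays of Meis1-high and Meis1-negative were not above background and the replicate 2 arrays were. Both genes passed the filter through Meis1-low alone.

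Several genes of this class had the higher estimate in Meis1-high. Spata9 had levels of -0.21 and -2.36 on Meis1-high, -1.72 and -2.64 on Meis1-low, and -5.29 and -1.44 on Meis1-negative, which overlap. Spata1 had 0.16 and -0.43, -0.62 and -1.25, and 1.32 and -1.66, with both Meis1-high arrays above both Meis1-low arrays by 0.80 ± 0.99 (SE; adjusted p 0.77, limma). Tex9 had 0.04 and -0.58, -0.53 and -1.57, and -0.77 and -1.80, and Tex21 had -2.30 and -2.96, -3.34 and -3.21, and -3.96 and -2.81. Their estimates of 0.78 and 0.65 had errors of 0.71 and 0.67, so neither is distinguishable from 0.

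Spata6, a protein of the sperm neck, had 2.22 and 0.33 on Meis1-high, 1.17 and 0.92 on Meis1-low, and 2.62 and 0.89 on Meis1-negative. Its 2 tested probes had opposite signs (-0.82 and 0.23). Spata18, a mitochondrial quality control protein, had -1.76 and -2.59, -2.84 and -2.29, and -5.28 and -2.57, and Spata21 had -0.80 and -2.77, -2.00 and -1.48, and -3.44 and -2.42. Tex101, a glycoprotein on the surface of germ cells, had -2.61 and -3.07, -3.07 and -2.64, and -3.70 and -2.58. In Spata18, Spata21 and Tex101 Meis1-high and Meis1-low overlapped, and Meis1-negative replicate 1 was not well above background.

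All 12 widely expressed genes were tested, and their median difference was -0.08. Spata2, an adaptor that brings the deubiquitinase Cyld to the TNF receptor complex, had levels of 0.12 and 0.81 on Meis1-high, 2.00 and 1.91 on Meis1-low, and 0.75 and 1.16 on Meis1-negative. Both Meis1-low arrays were above the other 4, and all 6 were well above background. The estimate, -1.49 ± 0.61 (SE; adjusted p 0.372, limma), was -1.88 on slide 1 and -1.10 on slide 2. Spata7, a protein of the photoreceptor cilium, had -3.19 and -1.14, -0.57 and -0.74, and -1.98 and -1.72, and both Meis1-low arrays were again the highest of the 6.

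The other widely expressed genes had smaller differences. Tex2, a membrane protein of the endoplasmic reticulum, had levels of 1.37 and 1.92 on Meis1-high, 2.12 and 1.96 on Meis1-low, and 2.86 and 1.69 on Meis1-negative. Spata5, an ATPase of ribosome maturation, had 0.50 and -0.02, 0.96 and 0.69, and 1.56 and 0.31, and its relative Spata5l1 had -1.94 and -3.57, -3.62 and -3.73, and -3.09 and -2.30. Their estimates for Meis1-high minus Meis1-low were -0.39, -0.59 and 0.92, with errors of 0.67, 0.68 and 0.74. Tex261, which works in export from the endoplasmic reticulum, and Tex264, a receptor for its autophagy, had estimates of -0.04 and 0.02, although the 3 Tex261 probes ranged from -0.04 to 1.56 and the 2 Tex264 probes from -0.10 to 0.02.

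Spata2l and Spata24 had estimates of 0.65 ± 0.67 and 0.89 ± 0.94 (SE), and Tex10, a protein of ribosome assembly, one of -0.06 ± 0.91. Spata20 had -0.11 ± 0.99. Spata13, a guanine nucleotide exchange factor, had levels of -0.55 and 0.67 on Meis1-high, 0.19 and 0.91 on Meis1-low, and 3.20 and 0.97 on Meis1-negative. Its highest value was on Meis1-negative replicate 1, the array with the high thymocyte marker sum, and their part in this value was not tested.

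Meis1-high was then compared with Meis1-negative. At an adjusted p under 0.05, limma called 0 of the 32 genes and 0% of all genes. At an unadjusted p under 0.05 it called 0 of the 32, against 10.5% of all genes. Both Meis1-high arrays lay above both Meis1-negative arrays for Prm1, Tex9 and Tnp2, against 19.5% of all genes, and the opposite held for Spata13, Ddx4 and Tex19.2, against 19.7%. For Ddx4 and Tex19.2 that order is in part one among probes that were not well above background and carries no information. The median difference was -0.18 for the 32 genes and -0.08 for all genes.

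The estimates for single genes varied between the slides. Tex19.2 was -2.69 ± 1.17 (SE; adjusted p 0.483, limma), with Meis1-negative higher by at least 2.14 on slide 1 and neither gate well above background on slide 2. Ddx4 was -2.06 ± 0.98 (adjusted p 0.524, limma), with neither gate well above background on slide 1 and Meis1-negative higher by at least 2.38 on slide 2. Spata13 was -2.03 ± 0.90 (adjusted p 0.493, limma), with -3.75 and -0.31. Spata9 was higher in Meis1-high by at least 3.45 on slide 1 and differed by -0.91 on slide 2. Tnp2 and Prm1 had estimates of 0.56 ± 0.61 and 0.83 ± 0.62.

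Meis1-low was compared with Meis1-negative in the same fit. At an adjusted p under 0.05, limma called 0 of the 32 genes and 0% of all genes. At an unadjusted p under 0.05, 2 of the 32 differed, Ddx4 and Tex14, both with the higher level in Meis1-low, against 8.19% of all genes. Both Meis1-low arrays lay above both Meis1-negative arrays for 9 of the 32 (Ddx4, Spata17, Spata19, Spata2, Spata21, Spata7, Sycp1, Tex14 and Tex19.1), against 24.2% of all genes. Among these 9, Ddx4, Spata17, Spata19, Sycp1 and Tex14 passed the filter through Meis1-low alone. The filter thus in part set this count and the count at an unadjusted p under 0.05. The opposite held for Spata13 and Spata5l1, against 15% of all genes. The median difference was 0.19 for the 32 genes and 0.08 for all genes. A moderated F test over the 3 gates called 0 of the 32 and 0% of all genes.

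For the genes of meiosis and germ granules, the 2 slides gave the same sign for 5 of the 7 tested genes. Because 6 of the 7 passed the filter through Meis1-low alone, the filter in part set their direction here too, and the signs are no support for a difference. Ddx4 was 2.54 ± 0.98 higher in Meis1-low (SE; adjusted p 0.601, limma), by at least 4.00 on slide 1 and by 0.48 on slide 2. Tex14 was 2.29 ± 0.78 higher (adjusted p 0.601, limma), by at least 1.70 and by 1.14, and Sycp1 1.34 ± 0.74 higher, by at least 0.39 and by 0.27. Tex11 was higher by 1.57 on slide 1 and by at least 0.82 on slide 2, and Tex19.1 by 4.12 and 0.92. For Tex15 the slides gave at least 2.64 and -0.23, and for Tex19.2 they gave -2.00 and at least 0.46. Spata19 was higher by at least 4.46 on slide 1 and by 0.66 on slide 2. Without Meis1-negative replicate 2, which leaves the array with the high thymocyte sum as the only one of its gate and assumes that it varies like the other gates, Ddx4 and Tex14 passed the adjusted test for Meis1-low minus Meis1-negative (adjusted p 0.0444 and 0.0452, limma), as did Tex19.2 for Meis1-high minus Meis1-negative (0.0445). In each of these 3 cases the dimmer gate had no array well above background, so the fit rests on surrogate values, and under 12 other settings the adjusted p of the 3 ran from 0.367 to 0.987 (limma).

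Other genes of the same pathway were read from lists that hold no member. Of 17 tested meiosis genes (24 on the array), 12 had the lower estimate in Meis1-high and 5 the higher, with a median of -0.50. Of all genes tested, 55.8% had the lower estimate in Meis1-high and 12.9% an unadjusted p under 0.05, with a median of -0.16. The filter was passed through Meis1-low alone by 5 of the 17, Syce1 and Smc1b among them, so it in part set their direction. None passed the adjusted test, and Stra8, Syce1, Meioc and Smc1b had an unadjusted p under 0.05 (limma), each lower in Meis1-high. Stra8, the retinoic acid target that opens meiosis, was well above background on all 6 arrays, with -0.49 and 0.15 on Meis1-high, 3.87 and 2.65 on Meis1-low, and 0.83 and 1.85 on Meis1-negative. The gates did not overlap, and Meis1-high minus Meis1-low was -3.43 ± 0.73 (SE; adjusted p 0.254, limma). Syce1, of the central element, was detected on both Meis1-low arrays alone (at least 2.24-fold above Meis1-high), as was Smc1b, a meiotic cohesin (at least 1.56-fold). Rec8, another meiotic cohesin, had its highest levels in Meis1-negative (-0.18 and -0.34, against -1.80 and -1.72 in Meis1-high and -1.70 and -0.83 in Meis1-low).

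Of 7 tested germ granule and piRNA genes (18 on the array), 4 were lower and 3 higher in Meis1-high, with a median of -0.77, and none passed the filter through Meis1-low alone. Gtsf1, a cofactor of PIWI proteins, had -5.45 and -1.41 on Meis1-high, 0.76 and 0.33 on Meis1-low, and -0.47 and -0.57 on Meis1-negative. Tdrd9, a helicase of the piRNA pathway, had -2.75 and -2.70, -0.04 and -0.61, and -5.91 and -1.34, and both genes had both Meis1-low arrays on top. Of 13 tested spermatid and sperm genes (35 on the array), 6 were higher and 7 lower in Meis1-high, with a median of -0.13. The filter was passed through Meis1-low alone by 2 of the 13, Acrv1 among them, and through Meis1-high alone by 1. Acrv1, an acrosome protein, was at least 2.41-fold higher in Meis1-low than in Meis1-high. Acrbp, another acrosome protein, was detected by its tested probe on both Meis1-high arrays alone, while another of its probes was detected in Meis1-low. No gene of these lists passed the adjusted test. An unadjusted p under 0.05 (limma) was found for Gtsf1 and Rnf17 (2 of 7) and for Acrv1 (1 of 13), against 12.9% of all genes. Rnf17, of the germ granules, had an estimate of 3.05, but the files place its probe on chromosome 4 and RefSeq places the gene on chromosome 14.

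Of 14 tested regulators of spermatogenesis and silencers of germ cell genes (17 on the array), 10 were lower in Meis1-high than in Meis1-low (55.8% of all genes were), with a median of -0.67. Rfx2, Taf7l and Mybl1 passed the filter through Meis1-low alone, so it in part set their direction. Taf7l, a transcription factor of spermatogenesis, had -2.79 and -2.05 in Meis1-low, at least 2.21-fold above Meis1-high. Rfx2, another, had -2.90 and -2.69 in Meis1-low and was not detected by that probe on either Meis1-high array, while another of its probes was detected in Meis1-high. The silencers had no common direction: E2f6 was 1.68 ± 0.99 (SE) higher in Meis1-high, Dnmt1, the maintenance DNA methyltransferase, 1.17 higher, and Dnmt3b, a de novo methyltransferase, had a difference of -2.15. Uhrf1, the partner of Dnmt1, had 6.03 on Meis1-negative replicate 1 and between 1.43 and 3.49 on the other 5 arrays. No gene of this list passed the adjusted test, and 2 of the 14, Rfx2 and Taf7l, had an unadjusted p under 0.05 (limma), against 12.9% of all genes.

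**Figure D4:**
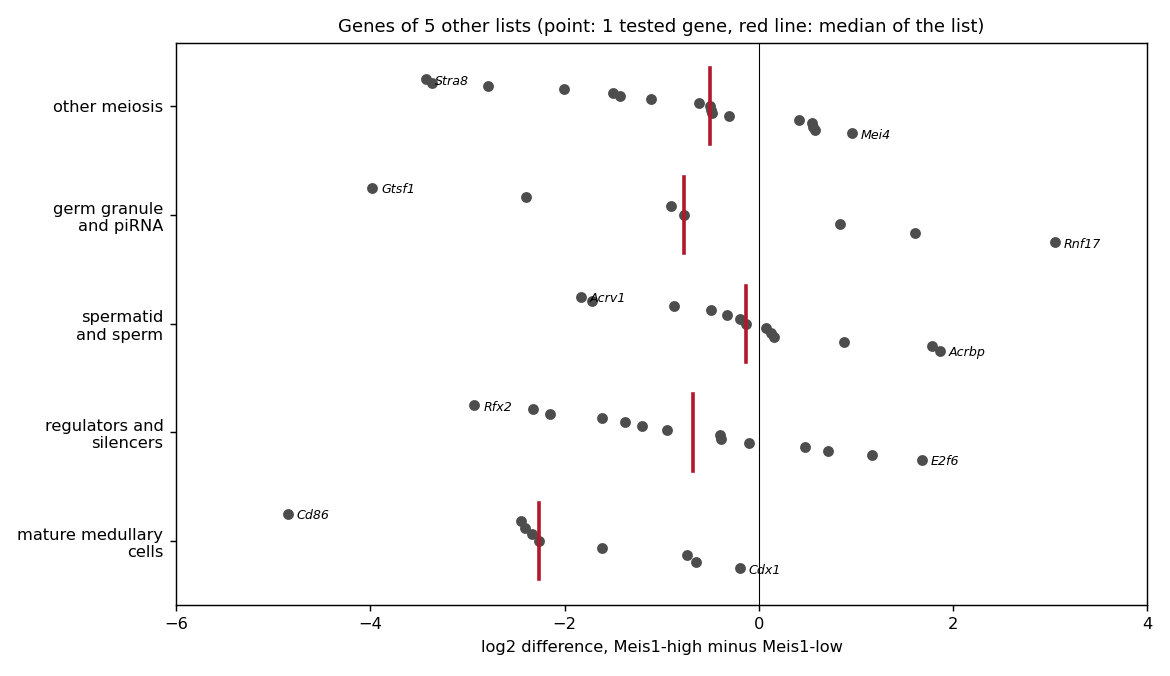
Log2 difference, Meis1-high minus Meis1-low (horizontal axis), for the tested genes of 5 lists that hold no member, with 1 point per gene, the lowest and highest gene named, and a red line at the list's median. The medians run from -0.13 for spermatid and sperm genes to -2.27 for genes of mature medullary cells, and the first 4 lists have genes on both sides of 0.

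Aire, the factor that promotes transcription of tissue-restricted antigens in medullary TEC, had levels of 1.25 and 2.74 on Meis1-high, 3.95 and 4.72 on Meis1-low, and 1.26 and 3.90 on Meis1-negative. Both Meis1-low arrays were the highest, with Meis1-high minus Meis1-low at -2.33 (adjusted p 0.39, limma). All 9 tested genes of mature medullary cells had the lower estimate in Meis1-high (55.8% of all genes did), with a median of -2.27, and 1 of them, Cd86, passed the filter through Meis1-low alone. The estimates were uneven, from -4.85 for Cd86 to -0.74 for Fezf2, -0.65 for Tnfrsf11a and -0.20 for Cdx1. None passed the adjusted test, and Cd86, Hdc and Tnfrsf9 had an unadjusted p under 0.05 (limma), against 12.9% of all genes. The list summed to 47.6 and 52.9 on Meis1-high, 169 and 128 on Meis1-low, and 23.6 and 95.7 on Meis1-negative. Fezf2, which directs other such antigens, had 2.99 and 1.91, 3.57 and 2.80, and 0.56 and 2.23, which overlap between Meis1-high and Meis1-low.

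Markers of other cell types were summed in the same way, and a sum rests mostly on its brightest genes. The 6 tested of 7 myeloid markers summed to 12.3 and 11.0 on Meis1-high, 46.4 and 41.3 on Meis1-low, and 6.16 and 32.2 on Meis1-negative. The 8 markers of dividing cells summed to 53.9 and 28.0, 150 and 90.1, and 194 and 103, and the 3 tested erythroid markers to 0.593 and 1.08, 5.51 and 4.29, and 0.977 and 3.26. The 5 B cell markers summed to 1.63 and 0.71, 2.67 and 1.52, and 3.1 and 5.37, and the 4 tested fibroblast and vessel markers to 5.75 and 2.67, 9.23 and 5.01, and 5.66 and 4.07. The 7 tested genes of meiosis and germ granules summed to 0.214 and 1.50 on Meis1-high, 12.2 and 4.38 on Meis1-low, and 1.28 and 2.46 on Meis1-negative. By gene, the estimate was lower in Meis1-high for 6 of 6 myeloid markers (2 of them tested through Meis1-low alone), 8 of 8 markers of dividing cells, 3 of 3 erythroid (1 through Meis1-low alone), 4 of 5 B cell (1 through Meis1-low alone), 10 of 15 thymocyte and T cell, and 2 of 4 fibroblast and vessel markers. Among those that were higher in Meis1-high, Cd3e had an estimate of 1.92, Themis 2.71, Col3a1 1.67 and Cdh5 0.74. Except for the markers of thymic epithelium, each of these marker sums was lower in Meis1-high than in Meis1-low on both slides. So was the sum over meiosis and germ granule genes, but 6 of its 7 genes passed the filter through Meis1-low alone. The filter thus had a part in that sum. On Meis1-low the sum came mostly from Tex19.1, with levels of 3.26 and 1.76, which passed the filter through Meis1-negative as well. Whether other cell types or the state of division had a part in the germ cell or mature medullary values was not tested.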

How the data were processed

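Per the file headers, the deposited scanner files hold Cy3 intensities, extracted by the authors in Agilent Feature Extraction 9.5.3.1. Probe positions in them are on mm9. Per the labels' protocols, 10 ng of RNA was amplified before labelling. The authors' own deposited value table is in log2 units, centred per probe. It correlates at 0.9999 or above with the scaled scanner signals once each probe's median over the arrays is subtracted from them. Slide and scan were the same for replicate 1 of the 3 gates, and likewise for replicate 2. Each sample is a pool, and the labels call the 2 experiments independent. Control and outlier spots were left out, probes averaged, and each array's 75th percentile subtracted after log2. The 26581 probes well above background on both arrays of a gate were tested, with the brightest per gene kept (18214 genes), by limma 3.58.1 in R 4.3.3, with 1 mean per gate (3 residual degrees of freedom) and Benjamini-Hochberg adjustment. The number of arrays limits the precision. The signal at the 75th percentile ran from 73.4 to 165. A bound on a fold, given where no probe of the gene was detected in the dimmer gate and the tested probe was on both arrays of the brighter, divides the brighter gate's mean by, per array, the higher of the lowest signal well above background and the dim probe's own. Undetected probes carry the scanner's surrogate values.

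Promoters are RefSeq windows. Genes were named by rule: the 7 germ cell genes, up to 8 genes per direction and comparison with the smallest p, the 5 with the highest mean level, those detected in 1 gate and not in another, and those whose probes disagree. The other genes were added to account for all 42. The genes and lists were chosen with earlier results of these data known. Alternatives were normexp (offset 50), other scalings, filters, a floor, the block, other probe rules, array weights, a variance trend, the authors' values, a threshold of 0.1, 4 arrays alone and each array left out. Figures used Python 3.11.15, pandas 2.3.3 and matplotlib 3.10.9.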

Additional observations from a re-analysis of the deposited data

How the results depend on the processing

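With normexp background correction, 242 genes were called for Meis1-high minus Meis1-low, 307 for Meis1-high minus Meis1-negative and 129 for Meis1-low minus Meis1-negative, and 1 of the 32 germ cell genes, Tex19.1, was called in the first (-2.39, limma adjusted p 0.00479). Between Meis1-high and Meis1-negative, median scaling called 78 genes, the floor 16 and the variance trend 4. Between Meis1-low and Meis1-negative, median scaling called 14 and the threshold of 0.1 called 3. The causes were not tested. Median scaling moved the median of all genes from -0.08 to -0.22 for Meis1-high minus Meis1-negative and from 0.08 to -0.06 for Meis1-low minus Meis1-negative. The median over the germ cell genes for Meis1-high minus Meis1-low was 0.11 with no filter and -0.24 with the mean of probes. In Meis1-negative, 28 of the 42 were detected by the scanner's significance mark and 33 on at least 1 of the 2 arrays.

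Some estimates, none of them called, changed sign. For Meis1-high minus Meis1-low, normexp gave -0.11 for Prm2 and Spata2l, -0.032 for Spata5l1 and -0.074 for Tex21, and the mean of probes gave -0.29 for Prm1. For Meis1-high minus Meis1-negative, Sycp1 was 0.32 with normexp and 0.24 with the floor. For Meis1-low minus Meis1-negative, normexp gave 0.074 for Prm1, 0.26 for Spata24, 0.46 for Spata2l, 0.19 for Spata5l1 and 0.16 for Tex19.2, the mean of probes 0.97 for Prm1, and Tnp2 was -0.084 with quantile and -0.12 with median scaling.

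With 1 array left out, the genes called ranged from 0 to 0 for Meis1-high minus Meis1-low, 0 to 984 for Meis1-high minus Meis1-negative and 0 to 1346 for Meis1-low minus Meis1-negative, with the highest counts without Meis1-negative replicate 2, where 1 and 2 germ cell genes were called. The medians of the germ cell genes ranged from -0.35 to -0.033, -0.19 to 0.10 and 0.16 to 0.68. Estimates that changed sign ranged, for Meis1-high minus Meis1-low, from -0.44 to 2.22 for Spata24. For Meis1-high minus Meis1-negative they ranged from -5.16 to 0.26 for Tex19.1, -1.37 to 0.37 for Sycp1 and -0.35 to 1.89 for Prm2. For Meis1-low minus Meis1-negative they ranged from -0.57 to 1.66 for Prm2, -2.25 to 0.73 for Spata1, -0.83 to 0.28 for Spata2l, -1.58 to 0.15 for Spata6, -2.39 to 1.07 for Tex19.2 and -0.33 to 0.35 for Tnp2, with the sign turned without Meis1-negative replicate 1 for all 6. In all, 304 of 318 values with an array left out and 661 of 677 under other settings kept their direction and call.

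With the slide as a replicate block, limma called 0 genes in each comparison and the estimates were the same (Ddx4 -4.60, Meis1-high minus Meis1-low). Differences between replicates correlated across genes at 0.21, 0.13 and 0.13 between pairs of gates, and the labels state no pairing. On Meis1-high the tested probes of Ddx4, Sycp1, Tex11, Tex14 and Tex19.2 were not well above background on either array, so signal over background limits their differences to bounds.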

Other observations

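Of the Tex and Spata genes that now carry such a name but stand under another in the files, 26 were on the array and 9 were tested. They were listed after the values of the others were seen, and they have no part in the counts of the 42. Spata45 was well above background on both Meis1-low arrays alone, with levels of -5.34 and -5.26 on Meis1-high, -1.44 and -2.92 on Meis1-low, and -4.32 and -4.22 on Meis1-negative. Spata33, an autophagy adaptor of sperm mitochondria, had -0.74 and -2.29, -4.19 and -3.15, and -3.97 and -2.65, with both Meis1-high arrays on top. Tex26 had -5.34 and -2.23, -6.42 and -5.61, and -3.26 and -2.48, and was well above background on Meis1-high replicate 2 and both Meis1-negative arrays and on neither Meis1-low array. The median Meis1-high minus Meis1-low difference of the 9 was 0.91, with 5 higher and 4 lower (55.8% of all genes were lower). The filter was passed through Meis1-low alone by 2 of the 9, Spata45 among them, and through Meis1-high alone by 2, Spata33 among them, so it in part set their direction. None passed the adjusted limma test, while 2 of them (Spata45 and Spata33) had an unadjusted p under 0.05, against 12.9% of all genes.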
